A study of Mus musculus with 9 samples.

Results

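The intervention group of a mouse study of intracerebral haemorrhage was compared with the control group of the same study, to describe which changes in gene expression the intervention group carried. The comparison used 6 of the 9 libraries of the series, 3 of each group, taken by their labels. A gene was tested where 3 or more of these 6 libraries had at least 1 FPKM (sequenced fragments of a gene scaled to the length of its transcript and to the size of the library), which held for 14109 of the 33586 entries of the table. Haemorrhage was made by injecting collagenase, an enzyme that digests the matrix of vessel walls, and RNA came from brain around the haematoma, per the design text. The intervention, experimental and control groups had 3 libraries each, and the 3 experimental libraries are given beside the other 6 as values. The title names nanomaterials of tetrahedral nucleic acid carrying miR-124 as a treatment. The labels give no strain, age, dose, carrier control or time after injection, and they do not say what each group received or whether control mice had collagenase. A bulk library of tissue beside a haematoma mixes the cells of that tissue with cells that entered from blood.

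When blood enters the brain, red cells break down and release haemoglobin, and the heme in it is taken up and split by heme oxygenase into iron, biliverdin and carbon monoxide. Microglia, the resident macrophages of the brain, and monocytes that enter from blood clear debris through phagocytosis and lysosomal digestion, and they signal through complement, chemokines and interferon. Astrocytes around the lesion turn reactive and raise intermediate filament genes such as Gfap and Vim, while neurons are lost or lower their synaptic and activity-induced genes. miR-124 is a microRNA abundant in neurons that pairs with its targets and lowers their mRNA and protein.

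Between 14000 and 14255 genes per intervention library and between 13408 and 13537 genes per control library reached 1 FPKM. The FPKM of all genes summed to between 330786 and 351195 in intervention and between 303394 and 305225 in control libraries, and since the table holds no counts the depth of each library is unknown. On the first principal component of the tested genes, with 67.0% of the variance, the intervention libraries lay at -32.4, -26.1 and -16.5 and the control libraries at 24.7, 27.5 and 22.9. Intervention library 3 was the nearest to control there, and it had the lowest of the 3 intervention values for 373 of the 448 genes that rose by 2-fold or more (83.3%). The tissue label matched its markers, since neuronal, astrocytic and oligodendrocyte genes were high in all 6 libraries, with Mbp, a myelin protein chosen after its values were seen, at 809.9, 468 and 747 FPKM in intervention and 518, 456 and 422 FPKM in control libraries. Some libraries stood apart in markers of blood or of a brain region. Control library 2 was high in red cell and neutrophil genes, control library 1 was low in striatal genes, and choroid plexus genes summed to 222, 268 and 1192 FPKM in intervention and 918, 798 and 332 FPKM in control libraries. Lymphocyte and granulocyte genes were mostly near 0. Ly6g, a surface marker of neutrophils chosen after its values were seen, was listed at 0 in every intervention library.

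In the intervention group the genes that rose most were those of heme breakdown, phagocytes and reactive astrocytes, while the pan-neuronal, synaptic vesicle and receptor lists held genes that fell and none that rose. Against control, 2056 genes rose and 1363 fell in the intervention group at an adjusted p under 0.05 (limma on log2(FPKM + 1), two-sided, Benjamini-Hochberg over all 14109 genes), which are 14.6% and 9.66% of the genes tested and 24.2% together. In size, 448 genes (3.18%) rose by 2-fold or more and 69 of them (0.489%) by 4-fold or more, while 14 genes (0.0992%) fell by 2-fold or more. The 3 libraries of each group did not overlap for 3207 genes with the intervention above (22.7%) and 2983 with it below (21.1%), 43.9% together. The median log2 fold change over all tested genes was -0.01. Changes below are log2 fold changes ± SE on the log2(FPKM + 1) scale with 3 libraries in each group, a scale that understates changes of low genes. Of the 448 genes, 192 were under 1 FPKM in every control library and so passed the filter through the intervention libraries alone. Among all tested genes 410 were of this kind and 377 of them were called higher. Counts of higher genes in lists that hold such members, and the calls of the members themselves, therefore carry little weight. Fewer genes were called when a library was left out, with 1394 to 1927 higher and 469 to 1166 lower. The count of lower genes was 610 without intervention library 1, 881 without intervention library 2, 469 without control library 1 and 539 without control library 2. No gene changed its direction among the calls of any of these settings. With values rescaled so that each library has the same sum (TPM), the median of all genes moved to -0.15, and 1500 genes were higher and 3314 lower, so that higher genes made up 31.2% of the calls, against 60.1% on the FPKM scale.

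**Figure D1:**
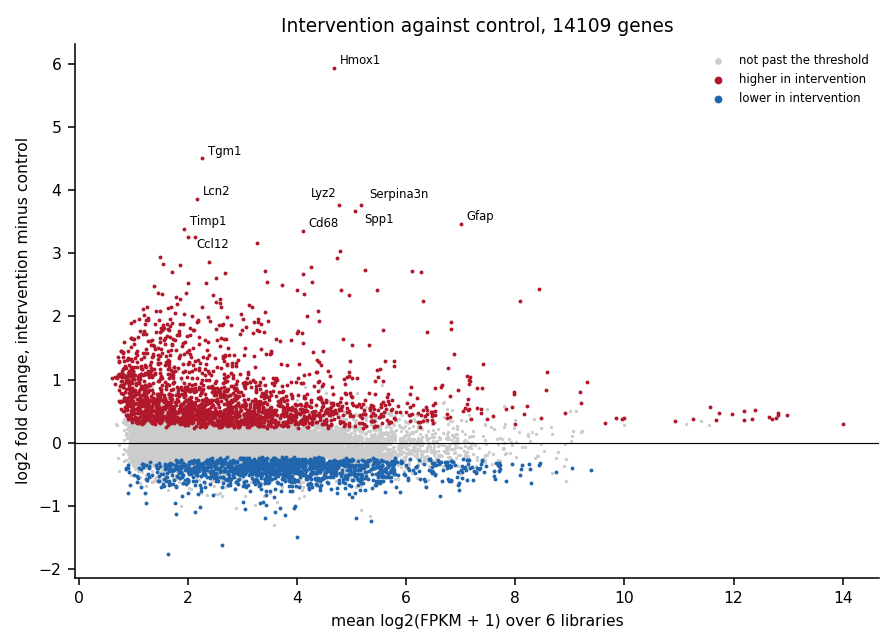
Each point is 1 of the 14109 tested genes, with its mean log2(FPKM + 1) over the 6 libraries on the x axis and its log2 fold change, intervention minus control, on the y axis; red genes rose, blue genes fell at an adjusted p under 0.05, and grey genes did not pass. The named points are the 10 largest increases, led by Hmox1 at 5.93, while no named decrease goes below -1.62.

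The largest increase was that of Hmox1, the heme oxygenase that macrophages and glia induce on heme (chr8:75093621-75100589, mm10). It had 215, 218 and 169 FPKM in the intervention libraries, against 2.61, 2.31 and 1.96 FPKM in the control libraries, and every intervention library stood far above every control library (log2 fold change 5.93 ± 0.12, adjusted p = 1.21e-06, a 60.9-fold change on the log2(FPKM + 1) scale). In the experimental group the same gene had 276, 359.7 and 329 FPKM. Of 16 genes listed for heme and iron handling, 12 were tested, 7 rose and 1 fell, with a median of 0.44 against -0.01 over all genes, of which 14.6% rose and 9.66% fell. Ferritin light chain gene Ftl1, which encodes part of the shell that stores iron, had 734, 587 and 484 FPKM in intervention and 119, 123 and 130.3 FPKM in control libraries (log2 fold change 2.25 ± 0.14, adjusted p = 6.74e-05). The iron exporter ferroportin, Slc40a1, had intervention values of 3.09, 3.43 and 3.11 FPKM and control values of 1.27, 1.19 and 1.15 FPKM (log2 fold change 0.94 ± 0.08, adjusted p = 2.56e-04). In both genes the groups were well apart. Blvrb, a biliverdin reductase, also rose (0.75 ± 0.10, adjusted p = 0.00211). The gene that fell was Tfrc, the transferrin receptor that imports iron, which was chosen after its values were seen and had 13.4, 13.8 and 16.3 FPKM in the intervention libraries, against 20.9, 18.6 and 17.6 FPKM in the control libraries (log2 fold change -0.37 ± 0.10, adjusted p = 0.0334). The count that fell was 0 without intervention library 1, intervention library 2, control library 1 or control library 2. Haptoglobin (Hp), hemopexin (Hpx), the haemoglobin receptor Cd163 and hepcidin (Hamp) were under the filter.

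Of 14 genes listed for antioxidant defence and ferroptosis, an iron-dependent cell death, 7 rose, 2 fell and the median was 0.32. Nfe2l2, which encodes the transcription factor NRF2 that drives many of these genes, had 12.2, 11.6 and 10.6 FPKM in intervention and 5.21, 4.81 and 4.65 FPKM in control libraries (log2 fold change 1.08 ± 0.08, adjusted p = 1.33e-04). The peroxide reductase Prdx1 rose by 0.98 ± 0.09, catalase (Cat) by 0.52 ± 0.08 and the cystine importer Slc7a11 by 0.46 ± 0.10 on the log2 scale (adjusted p = 3.39e-04, 0.00274 and 0.0158). Sod2, the mitochondrial superoxide dismutase, and Acsl4, an enzyme that places unsaturated fatty acids in membranes, were the members that fell, by 0.32 and 0.40 on the log2 scale. The count that rose was 3 without control library 2 and 4 without intervention library 1 or control library 1, and the count that fell was 0 without control library 1 or control library 2 and 1 without intervention library 1, intervention library 2, intervention library 3 or control library 3. Metallothioneins, small proteins that bind zinc and copper, rose, while the zinc transporters Slc30a1 and Slc39a14 did not pass. Mt1 had intervention values of 239, 181 and 159 FPKM and control values of 73.9, 70.8 and 69.3 FPKM (log2 fold change 1.40 ± 0.14, adjusted p = 4.88e-04), and Mt2 and Mt3 rose by 1.80 ± 0.20 and 0.88 ± 0.16. Intervention library 1 was the highest of its group for each of the 3. When a library was left out, the threshold was missed by Slc7a11 without control library 2 (adjusted p up to 0.0504).

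**Figure D2:**
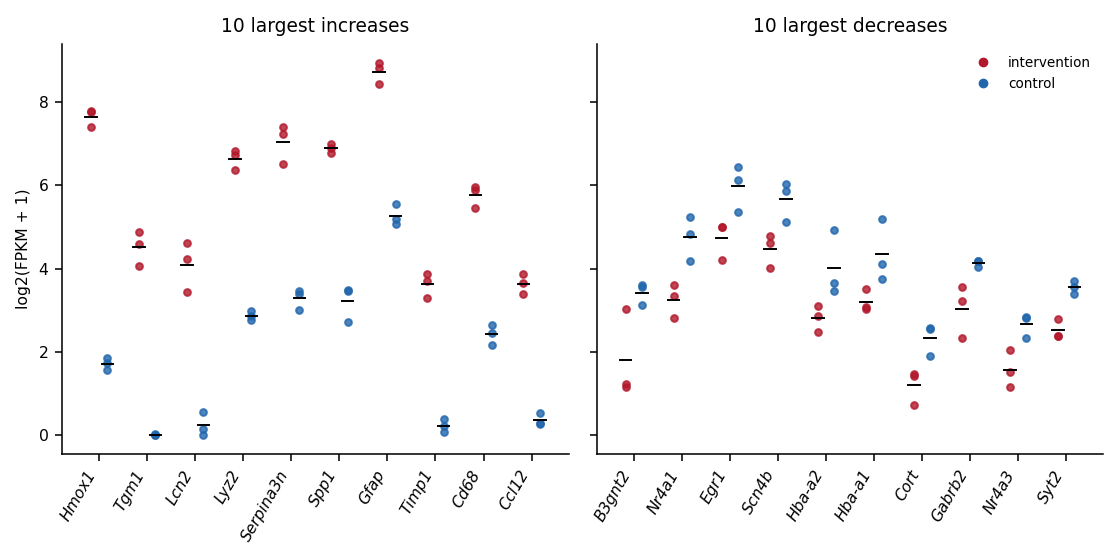
Points give log2(FPKM + 1) of each of the 3 intervention (red) and 3 control (blue) libraries for the 10 largest increases (left) and the 10 largest decreases (right), with the mean of 3 as a black bar. The increases span log2 fold changes of 3.26 to 5.93, while the decreases reach -1.62 and B3gnt2 has 1 intervention library near the control libraries. Genes were taken only where the groups did not overlap and the adjusted p was under 0.05.

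Microglial and macrophage genes rose throughout the lists. All 14 listed genes of homeostatic microglia were tested and rose, with a median of 1.38, and they rose whichever library was left out. Their FPKM summed to 464 to 541 FPKM in intervention and 138 to 156 FPKM in control libraries. Fcrls, an Fc receptor-like gene of resident microglia, had 81.4, 71.3 and 64.3 FPKM in the intervention libraries, against 8.54, 9.18 and 8.27 FPKM in the control libraries (log2 fold change 2.92 ± 0.10, adjusted p = 1.33e-05). Csf1r, the receptor for the growth factors that keep microglia alive, had 52.7, 52.7 and 43.7 FPKM in intervention and 14.6, 16.2 and 14.7 FPKM in control libraries (log2 fold change 1.64 ± 0.10, adjusted p = 4.95e-05). Olfml3, a secreted microglial protein, rose by 1.87 ± 0.11. In bulk tissue, more cells of a type and more RNA per cell cannot be told apart.

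Of 15 genes of activated microglia and macrophages, 14 were tested and 14 rose, with a median of 1.59; 5 of them were under 1 FPKM in every control library. Spp1, which encodes the secreted phosphoprotein osteopontin, had intervention values of 118, 126 and 109 FPKM and control values of 10.2, 5.64 and 9.99 FPKM (log2 fold change 3.66 ± 0.19, adjusted p = 3.44e-05). Cd68, a glycoprotein of phagocyte lysosomes, had 61.4, 58.6 and 43.2 FPKM in the intervention libraries, against 3.51, 5.28 and 4.48 FPKM in the control libraries (log2 fold change 3.35 ± 0.16, adjusted p = 3.06e-05). No intervention library came near a control library for either gene. Lgals3 (galectin-3) and Gpnmb, both marks of lipid-laden phagocytes, rose by 3.25 ± 0.16 and 2.36 ± 0.11. Of 10 genes of infiltrating monocytes, 5 were tested and rose, of which 3 were under 1 FPKM in every control library, and the other 5, Ccr2 and Ly6c2 among them, were under the filter. Lyz2, the lysozyme of myeloid cells, had 104, 113 and 82.3 FPKM in intervention and 6.87, 5.81 and 6.34 FPKM in control libraries (log2 fold change 3.77 ± 0.12, adjusted p = 1.33e-05). Ms4a6c, a membrane protein of myeloid cells, had intervention values of 5.08, 5.11 and 4.12 FPKM and control values of 0.374, 0.337 and 0.362 FPKM (log2 fold change 2.08 ± 0.10, adjusted p = 3.02e-05). Both were low in every control library. Ccr2, the chemokine receptor that defines entering monocytes and was chosen after its values were seen, had 0.321, 0.5700 and 0.6895 FPKM in the intervention libraries, against 0.0717, 0.0366 and 0.0805 FPKM in the control libraries, so that its groups did not overlap (exact two-sided permutation p = 0.1, the smallest that 3 against 3 can give). The monocyte genes summed to 95.5 to 131 FPKM in intervention and 8.504 to 9.11 FPKM in control libraries, most of it Lyz2.

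Genes that carry out phagocytosis and digestion rose with them. All 13 tested of 14 lysosomal genes rose (median 1.75). Cathepsin D (Ctsd), the most abundant lysosomal protease of the list, had 885, 844 and 704 FPKM in intervention and 150.0, 148 and 147 FPKM in control libraries (log2 fold change 2.44 ± 0.10, adjusted p = 1.87e-05), and its control libraries hardly differed. Cathepsin S (Ctss), cathepsin C (Ctsc) and legumain (Lgmn) rose by 2.25 ± 0.09, 1.93 ± 0.08 and 1.75 ± 0.09. Of 12 complement genes, 11 were tested and rose (median 2.31), C5ar1 and 2 others of them being under 1 FPKM in every control library. C4b, a component of the classical cascade, had intervention values of 31.9, 26.3 and 21.3 FPKM and control values of 3.29, 2.84 and 3.32 FPKM (log2 fold change 2.71 ± 0.14, adjusted p = 3.24e-05). The subunits of complement receptor 3, Itgam and Itgb2, and the C5a receptor C5ar1 rose by 1.83 ± 0.08, 2.34 ± 0.08 and 1.77 ± 0.08. All 7 tested of 11 Fc and lectin receptors rose (median 1.93), of which 4 were under 1 FPKM in every control library. Among the 7 were the Fc receptors Fcgr1, Fcgr3 and Fcgr4 and their shared signalling chain Fcer1g, which had 55.3, 42.3 and 32.6 FPKM in the intervention libraries, against 5.55, 6.04 and 5.95 FPKM in the control libraries (log2 fold change 2.67 ± 0.17, adjusted p = 6.66e-05). The intervention libraries ranged more widely than the control libraries there.

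Among scavenger receptors and genes of alternative activation, 8 of 9 tested genes rose (median 1.60), and 5 were under 1 FPKM in every control library. Cd5l, a secreted lipid-binding protein of tissue macrophages, had 7.796, 6.86 and 5.62 FPKM in intervention and 0, 0 and 0.0243 FPKM in control libraries (log2 fold change 2.93 ± 0.12, adjusted p = 1.87e-05). Msr1, a scavenger receptor for modified lipoproteins, had intervention values of 2.18, 2.25 and 1.87 FPKM and control values of 0.0355, 0.0163 and 0.0241 FPKM (log2 fold change 1.60 ± 0.10, adjusted p = 5.77e-05). Both genes were close to 0 in control brain. Stab1, a scavenger receptor of macrophages, and Il4ra, the receptor chain for interleukin-4, rose by 2.16 ± 0.12 and 1.63 ± 0.11. Genes listed for Toll-like receptors and NF-kB signalling rose in 10 of 11 cases (median 0.65). However, 4 of the 11, Tlr1, Tlr2 and Tlr7 among them, were under 1 FPKM in every control library. Tlr2 rose by 2.15 ± 0.12, Tlr7 by 1.69 ± 0.10, the co-receptor Cd14 by 1.48 ± 0.11 and Tlr1 by 1.13 ± 0.11. Of 7 inflammasome genes, 3 were tested and rose, namely the adaptor Pycard (1.50 ± 0.13), the pore former Gsdmd (1.25 ± 0.10) and the DNA sensor Aim2 (0.68 ± 0.13). Pycard and Gsdmd were under 1 FPKM in every control library. Nlrp3 and Casp1 were under the filter.

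Chemokine genes were raised, while Il1b, Tnf and Il6 stayed below 1 FPKM in all 6 libraries. Of 20 cytokine and chemokine genes, 9 were tested and 7 rose (median 1.36, and 2.28 under TPM), 6 of the tested genes being under 1 FPKM in every control library. Ccl12, a chemokine for monocytes, had 13.6, 11.6 and 9.54 FPKM in the intervention libraries, against 0.218, 0.223 and 0.4603 FPKM in the control libraries (log2 fold change 3.26 ± 0.14, adjusted p = 1.87e-05). Ccl2, the main ligand of Ccr2, had 2.99, 3.18 and 2.62 FPKM in intervention and 0, 0 and 0.0912 FPKM in control libraries (log2 fold change 1.93 ± 0.10, adjusted p = 3.26e-05). The control libraries were at or near 0 for both. Cxcl16 and the interferon-induced Cxcl10 rose by 1.49 ± 0.09 and 1.36 ± 0.10. Il1b, which encodes interleukin-1 beta, and Tnf were under the filter: Il1b had intervention values of 0.343, 0.405 and 0.552 FPKM and control values of 0.0265, 0.0388 and 0.0813 FPKM. Tnf had 0.416, 0.626 and 0.169 FPKM in the intervention libraries, against 0.0276, 0 and 0.0317 FPKM in the control libraries. The groups did not overlap for either, and the exact two-sided permutation p was 0.1 for each, the smallest this design allows. Il6, chosen after its values were seen, had 0.0159, 0.0958 and 0.0956 FPKM in the intervention libraries and was listed at 0 in every control library.

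Interferon-response genes rose in every tested case. Of 21 listed, 18 were tested, 18 rose and the median was 1.15; the 3 under the filter were Rsad2, Mx1 and Ifi44, and 3 of the tested genes were under 1 FPKM in every control library. The promoters of Isg15 (chr4:156200769-156201068, minus strand), Ifit3 (chr19:34583279-34583578, plus strand) and Oas1a (chr5:120907476-120907775, minus strand) are shown as examples of how the element that interferon-activated factors bind is written in this list (RefSeq, GRCm38.p6, 300 bases around the gene's start, read 5′ to 3′ on the gene's strand). Capitals mark matches to GAAANNGAAA or to its reverse complement TTTCNNTTTC, which may overlap.
Isg15: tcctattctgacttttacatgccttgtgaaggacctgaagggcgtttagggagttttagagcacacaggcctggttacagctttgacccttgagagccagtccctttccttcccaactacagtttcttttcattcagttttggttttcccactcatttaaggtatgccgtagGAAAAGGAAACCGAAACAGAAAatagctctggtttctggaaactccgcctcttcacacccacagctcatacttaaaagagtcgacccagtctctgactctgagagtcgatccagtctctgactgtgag
Ifit3: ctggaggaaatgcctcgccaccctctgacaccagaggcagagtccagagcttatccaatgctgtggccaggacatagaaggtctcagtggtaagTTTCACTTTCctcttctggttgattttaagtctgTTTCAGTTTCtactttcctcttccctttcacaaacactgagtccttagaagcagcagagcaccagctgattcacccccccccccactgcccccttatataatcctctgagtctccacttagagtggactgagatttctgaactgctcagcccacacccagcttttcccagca
Oas1a: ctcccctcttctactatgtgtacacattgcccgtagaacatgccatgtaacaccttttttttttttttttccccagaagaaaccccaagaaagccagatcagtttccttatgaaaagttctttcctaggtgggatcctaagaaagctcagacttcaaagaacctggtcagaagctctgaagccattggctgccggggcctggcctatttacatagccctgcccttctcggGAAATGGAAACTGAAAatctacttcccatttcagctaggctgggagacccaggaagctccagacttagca
Of the 18 tested genes, 14 had a promoter in the table and 9 of these (64.3%) held the motif, against 1079 of all 27025 genes (3.99%). The genes and the motif were chosen with earlier results known, so the share is a description of these promoters, and a match is not a shown binding site.

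Ifi27l2a, an interferon-induced protein, had 17.5, 9.78 and 12.97 FPKM in intervention and 0.832, 0.738 and 1.29 FPKM in control libraries (log2 fold change 2.86 ± 0.20, adjusted p = 9.31e-05). Ifitm3, a membrane protein that blocks virus entry, had intervention values of 44.8, 38.7 and 37.6 FPKM and control values of 10.02, 8.91 and 10.8 FPKM (log2 fold change 1.92 ± 0.10, adjusted p = 3.24e-05). Every intervention library was above every control library for both. Bst2 (tetherin) rose by 1.96 ± 0.15 and Rtp4 by 1.58 ± 0.10. The 3 genes whose promoters are printed, chosen after their values were seen, rose as well. Ifit3, an interferon-induced protein of antiviral complexes, had 18.9, 17.4 and 17.01 FPKM in the intervention libraries, against 7.32, 5.29 and 5.65 FPKM in the control libraries (log2 fold change 1.41 ± 0.11, adjusted p = 1.86e-04). Isg15, a ubiquitin-like modifier, had 8.13, 6.27 and 6.11 FPKM in intervention and 1.91, 2.48 and 1.74 FPKM in control libraries (log2 fold change 1.36 ± 0.13, adjusted p = 4.04e-04). Oas1a, a sensor of double-stranded RNA, had intervention values of 3.55, 3.395 and 2.74 FPKM and control values of 0.588, 0.2395 and 0.318 FPKM (log2 fold change 1.62 ± 0.13, adjusted p = 1.68e-04). The groups were apart for all 3, but Oas1a was under 1 FPKM in every control library, so its call carries little weight. In the experimental group the means of all 18 genes were above those of the intervention group, with a median log2 fold change over control of 1.68. None of the 18 passed between these groups after adjustment. The same order of means held for 11 of 11 tested complement, 11 of 11 antigen presentation and 13 of 13 lysosomal genes, and for 1 of 14 pan-neuronal genes. Antigen presentation genes rose in 11 of 11 tested cases (median 0.98), with 5 of them, H2-Ab1 and Psmb8 included, under 1 FPKM in every control library. B2m, the light chain of MHC class I, had 301, 261 and 226 FPKM in the intervention libraries, against 111, 117 and 99.7 FPKM in the control libraries (log2 fold change 1.25 ± 0.12, adjusted p = 3.85e-04), and the class I heavy chain H2-D1 and the immunoproteasome subunit Psmb8 rose by 1.05 ± 0.10 and 1.42 ± 0.12. H2-Ab1, an MHC class II chain, was low but apart, with 2.45, 2.65 and 2.57 FPKM in intervention and 0.725, 0.4998 and 0.645 FPKM in control libraries (log2 fold change 1.13 ± 0.09, adjusted p = 1.96e-04).

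Reactive astrocyte genes made up 5 of the 10 largest increases. Of 18 listed, 15 were tested and 14 rose (median 1.25), with Hspb1 the exception. Of the tested genes, 7 were under 1 FPKM in every control library, among them Tgm1, Timp1 and Lcn2 of the largest increases. These passed the filter through the intervention libraries alone, so their calls carry little weight. Gfap, the intermediate filament of astrocytes (chr11:102887336-102900912, mm10), had intervention values of 493, 449 and 344 FPKM and control values of 45.7, 32.6 and 35.3 FPKM (log2 fold change 3.47 ± 0.17, adjusted p = 3.04e-05). Vim (vimentin), a second filament gene, had 94.6, 81.7 and 60.6 FPKM in the intervention libraries, against 9.68, 7.84 and 8.45 FPKM in the control libraries (log2 fold change 3.03 ± 0.16, adjusted p = 3.41e-05). Intervention library 3 was the lowest of its group in both and still far above control. Tgm1, which encodes a transglutaminase that crosslinks proteins, had 28.5, 23.03 and 15.7 FPKM in intervention and 0.0204, 0 and 5.69e-04 FPKM in control libraries (log2 fold change 4.50 ± 0.19, adjusted p = 1.87e-05). Timp1, a protease inhibitor, had intervention values of 13.7, 12.1 and 8.75 FPKM and control values of 0.317, 0.0617 and 0.167 FPKM (log2 fold change 3.39 ± 0.16, adjusted p = 3.02e-05). Both were at or near 0 in control brain. Serpina3n, a serine protease inhibitor, had 167, 150.2 and 90.7 FPKM in the intervention libraries, against 10.1, 7.01 and 9.55 FPKM in the control libraries (log2 fold change 3.76 ± 0.23, adjusted p = 5.78e-05). Lcn2 (lipocalin-2), which binds iron carriers of bacteria, had 23.6, 17.9 and 9.797 FPKM in intervention and 0.107, 0.484 and 0 FPKM in control libraries (log2 fold change 3.86 ± 0.29, adjusted p = 1.33e-04). Intervention library 3 was again the lowest. Among genes that astrocytes express at rest, 10 of 11 rose, with a median of 0.57. Aqp4, the water channel of astrocyte endfeet, had intervention values of 45.3, 46.1 and 42.4 FPKM and control values of 22.9, 17.9 and 23.9 FPKM (log2 fold change 1.03 ± 0.11, adjusted p = 7.42e-04), and Aldh1l1, Slc1a3 (a glutamate transporter) and Gja1 (a connexin) rose by 1.07 ± 0.10, 0.72 ± 0.09 and 0.70 ± 0.07. Slc1a2, the main glutamate transporter, was the member that did not pass.

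Vessel and matrix genes rose in part. Of 14 endothelial genes, 9 rose and none fell (median 0.48). Cldn5, the tight junction protein of brain endothelium, had 48.1, 39.1 and 40.3 FPKM in the intervention libraries, against 20.5, 21.2 and 18.5 FPKM in the control libraries (log2 fold change 1.04 ± 0.10, adjusted p = 4.03e-04). Vwf, the clotting glycoprotein, had 3.37, 4.103 and 3.505 FPKM in intervention and 1.24, 1.07 and 1.22 FPKM in control libraries (log2 fold change 1.10 ± 0.09, adjusted p = 2.28e-04). The cadherin Cdh5 and the glucose transporter Slc2a1 rose by 0.70 ± 0.09 and 0.52 ± 0.07. Of 9 pericyte and smooth muscle genes, 3 rose (median 0.23): Tagln by 1.20 ± 0.25, Pdgfrb by 0.35 ± 0.08 and Abcc9 by 0.33 ± 0.09. The median was 0.08 under TPM, where 1 passed, and 0.07 under quantile normalization. Abcc9 was under 1 FPKM in every control library and lost its call whichever library was left out, and the count was 1 without control library 2. Matrix genes rose in 7 of 10 cases (median 0.81; 1 of the 10 was under 1 FPKM in every control library), with the growth factor binder Igfbp2 at intervention values of 110.5, 82.2 and 72.6 FPKM and control values of 27.03, 26.2 and 20.7 FPKM (log2 fold change 1.79 ± 0.17, adjusted p = 3.49e-04). Fibronectin (Fn1) and the basement membrane collagens Col4a1 and Col4a2 rose by 1.38 ± 0.12, 1.22 ± 0.10 and 0.87 ± 0.13. Among matrix proteases and the plasminogen system, 6 of 10 rose (median 0.53), 2 of the 10 being under 1 FPKM in every control library. Mmp14, a membrane-bound protease, Plaur (the urokinase receptor) and Mmp2 rose by 1.02 ± 0.10, 0.97 ± 0.12 and 0.66 ± 0.10. The threshold was missed by Pdgfrb without control library 2 (adjusted p up to 0.0603).

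Cell cycle genes rose from a level near 0. Of 12 proliferation genes, 11 were tested and rose (median 1.65), but 9 of these were under 1 FPKM in every control library. Rrm2, a subunit of the enzyme that makes deoxynucleotides, had 10.2, 9.895 and 6.16 FPKM in intervention and 0.674, 0.949 and 0.386 FPKM in control libraries (log2 fold change 2.53 ± 0.20, adjusted p = 1.54e-04). Top2a, a topoisomerase of dividing cells, had intervention values of 3.47, 4.505 and 2.52 FPKM and control values of 0.2098, 0.263 and 0.143 FPKM (log2 fold change 1.88 ± 0.16, adjusted p = 2.43e-04). Intervention library 3 was the lowest of its group for both. Of 12 apoptosis and p53 genes, 7 rose (median 0.47; 2 of the 12 were under 1 FPKM in every control library), including the TNF receptor Tnfrsf1a (1.88 ± 0.15), Casp8 (1.28 ± 0.10), the cell cycle inhibitor Cdkn1a (0.95 ± 0.07) and Bak1 (0.75 ± 0.09). Oligodendrocyte precursor genes rose in 5 of 9 cases (median 0.43; 3 without control library 2), with Gpr17 of committed precursors at 18.4, 20.9 and 19.2 FPKM in the intervention libraries, against 11.7, 11.5 and 13.9 FPKM in the control libraries (log2 fold change 0.62 ± 0.09, adjusted p = 0.00365). Of 10 genes of mature oligodendrocytes, 3 rose (median 0.48). Cldn11, a myelin tight junction protein, had 201, 123 and 176 FPKM in intervention and 100.2, 92.2 and 81.5 FPKM in control libraries (log2 fold change 0.83 ± 0.18, adjusted p = 0.0147), and Mobp, a myelin-associated basic protein, rose by 0.80 ± 0.20. Intervention library 2 was the lowest of its group for both, and the count that rose was 1 without intervention library 1, intervention library 3, control library 2 or control library 3 and 8 without intervention library 2. Of 8 growth factor and repair genes, Hbegf and Fgf2 rose by 0.76 ± 0.13 and 0.45 ± 0.10, and the neurotrophin Bdnf fell by 0.55 on the log2 scale, with intervention values of 2.01, 1.795 and 2.16 FPKM and control values of 3.64, 3.58 and 2.93 FPKM (adjusted p = 0.00712). Among all genes 14.6% rose and 9.66% fell, and the list was not tested against these shares. The median of that list was 0.08, and it was -0.02 under TPM, -0.04 under quantile normalization and 0.01 without control library 2. Calls were lost for Fgf2 without control library 1 or 2 (adjusted p up to 0.05902) and Mobp without intervention library 1 or 3 or control library 2 or 3 (adjusted p up to 0.0878).

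**Figure D3:**
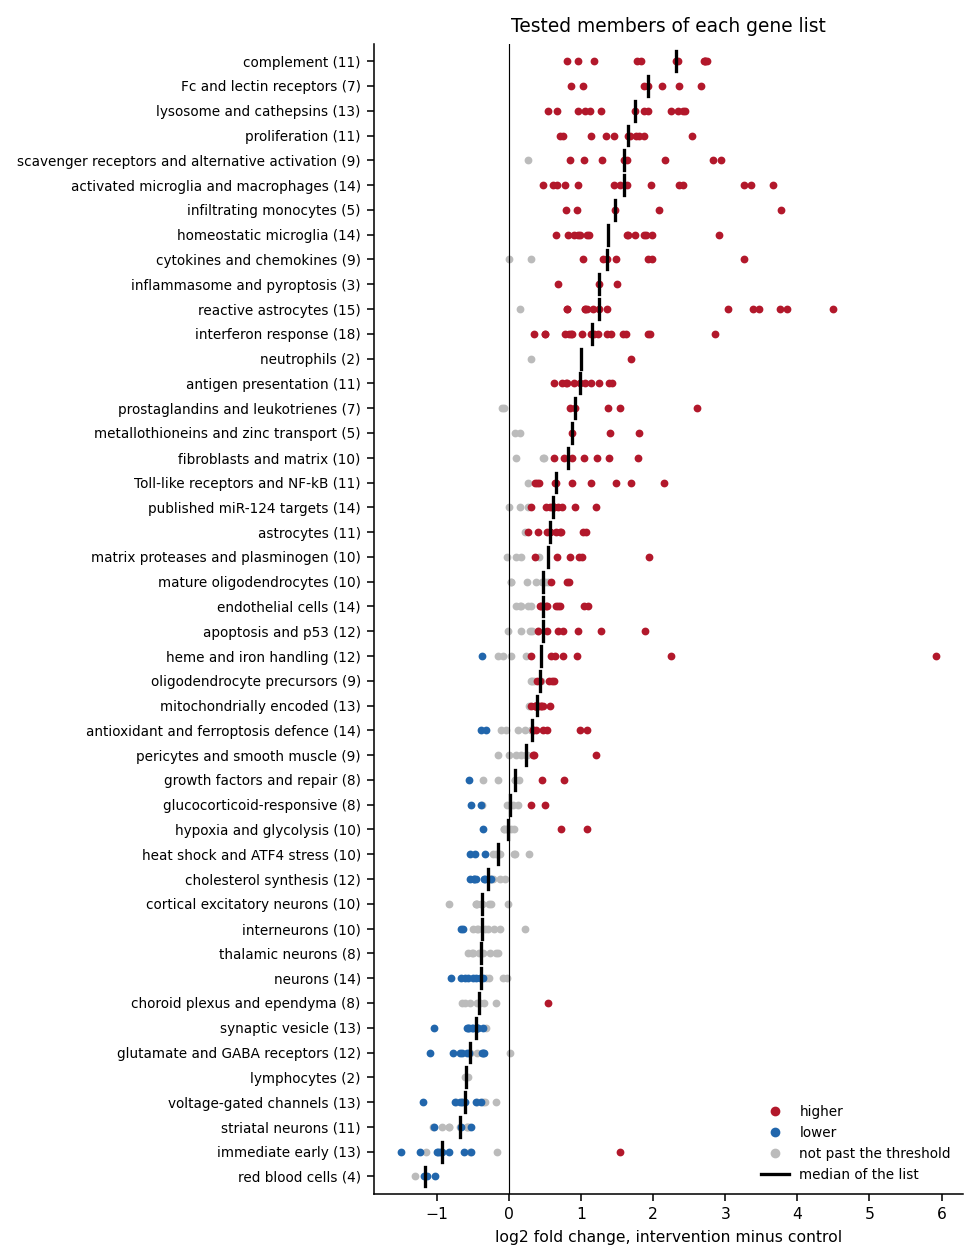
Each row is a gene list with its number of tested members in parentheses; points give log2 fold changes of members, intervention minus control, in red where higher, blue where lower and grey where not past the threshold, and the black bar is the median of the list. Lists of complement, Fc receptors and lysosomes lie at the top and lists of striatal neurons, immediate early genes and red cells at the bottom, with medians between -1.16 and 2.31.

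Neuronal genes fell, each by less than 2-fold among the pan-neuronal genes that passed. Of 14 pan-neuronal genes, 10 fell and none rose (median -0.40), and between 8 and 10 fell whichever library was left out. With the replicate number as a block in the fit, 3 fell. Nefm, a subunit of the axonal neurofilament, had 21.04, 20.9 and 25.7 FPKM in the intervention libraries, against 44.4, 39.8 and 36.2 FPKM in the control libraries (log2 fold change -0.81 ± 0.11, adjusted p = 0.002103). Rbfox3, which encodes the nuclear marker NeuN, had 23.4, 23.5 and 29.1 FPKM in intervention and 34.3, 43.6 and 31.1 FPKM in control libraries (log2 fold change -0.50 ± 0.14, adjusted p = 0.0388). The groups did not overlap for either, though control library 3 lay close to intervention library 3 for Rbfox3, whose adjusted p reached 0.123 when a library was left out. Syt1, the calcium sensor of vesicle release, and the vesicle proteins Syn1 and Syp fell by 0.67, 0.40 and 0.39 on the log2 scale. In the synaptic vesicle list 11 of 13 genes fell (median -0.46). Syt2, a calcium sensor of fast synapses, had intervention values of 4.26, 4.19 and 5.897 FPKM and control values of 12.1, 9.501 and 10.9 FPKM (log2 fold change -1.04 ± 0.13, adjusted p = 0.001604). Its groups did not overlap, which was a condition for the 10 largest decreases, to which it belongs. The count that fell was 5 without intervention library 1 or control library 1, 6 without control library 2 and 7 without intervention library 2. It was 4 with the replicate number as a block. The threshold was missed by Rbfox3 without intervention library 1 or 2 or control library 1 or 2 (adjusted p up to 0.123).

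Receptor and channel genes fell too. Of 12 glutamate and GABA receptor subunits, 9 fell (median -0.55). Gabrb2, a subunit of GABA-A receptors and among the 10 largest decreases, had intervention values of 4.07, 8.31 and 10.7 FPKM and control values of 17.2, 17.05 and 15.5 FPKM (log2 fold change -1.10 ± 0.27, adjusted p = 0.0253). Intervention library 1 was the lowest of the 6. The metabotropic glutamate receptor Grm5 fell by 0.55. Of 13 voltage-gated channel genes, 7 fell (median -0.61, and -0.40 without intervention library 1). Scn4b, a sodium channel beta subunit abundant in striatum, had 26.8, 15.3 and 23.6 FPKM in the intervention libraries, against 33.6, 64.7 and 57.7 FPKM in the control libraries (log2 fold change -1.19 ± 0.27, adjusted p = 0.0196). Scn1a, a pore subunit, had 8.77, 10.5 and 12.6 FPKM in intervention and 22.4, 17.7 and 15.8 FPKM in control libraries (log2 fold change -0.76 ± 0.16, adjusted p = 0.0128). The potassium channel genes Kcnc1 and Kcna2 fell by 0.68 and 0.61. The groups were apart for both. The count of receptors that fell was 3 without control library 1, 4 without control library 2 and 5 without intervention library 2. The count of channels was 3 without control library 2 and 4 without intervention library 2 or control library 1. With the replicate number as a block, 6 receptors and 2 channels fell. Calls were lost for Gabrb2 without control library 1 or 2 (adjusted p up to 0.0789) and Scn4b without intervention library 2 or control library 2 (adjusted p up to 0.05902).

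Immediate early genes, which neurons transcribe within minutes of activity, fell in 9 of 13 cases, with a median of -0.94. Nr4a1, a nuclear receptor, had intervention values of 9.09, 6.04 and 11.3 FPKM and control values of 27.4, 36.8 and 17.3 FPKM (log2 fold change -1.50 ± 0.28, adjusted p = 0.00939). Egr1, a zinc finger transcription factor, had 31.2, 17.6 and 30.8 FPKM in the intervention libraries, against 69.5, 85.4 and 39.8 FPKM in the control libraries (log2 fold change -1.23 ± 0.31, adjusted p = 0.02597). Fos, a subunit of the AP-1 factor, had 7.64, 6.37 and 5.63 FPKM in intervention and 13.7, 15.7 and 11.1 FPKM in control libraries (log2 fold change -0.94 ± 0.14, adjusted p = 0.00336). Control library 3 was the lowest control for the 3 genes, and control library 2 the highest. The phosphatase gene Dusp1 and the nuclear receptor Nr4a3 fell by 0.83 and 1.09. Atf3, an injury-induced factor, was the exception and had intervention values of 3.93, 3.21 and 2.76 FPKM and control values of 0.489, 0.407 and 0.514 FPKM (log2 fold change 1.54 ± 0.12, adjusted p = 1.33e-04). It passed the filter through the intervention libraries alone. Of the 410 tested genes under 1 FPKM in every control library, 377 were called higher, so this call carries little weight. The count that fell was 5 without intervention library 1, intervention library 2, control library 1 or control library 2. It was also 5 with the replicate number as a block. When a library was left out, the threshold was missed by Egr1 without intervention library 1 or 2 or control library 1 or 2 (adjusted p up to 0.0853) and Nr4a3 without intervention library 1 or control library 1 (adjusted p up to 0.0592).

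Markers of neuron types by region varied among libraries of 1 group. Of 11 tested genes of striatal neurons, 3 fell (median -0.68, and -1.17 without control library 1). Pde10a, a phosphodiesterase of striatal projection neurons, had 8.75, 6.996 and 8.31 FPKM in the intervention libraries, against 10.2, 22.9 and 22.4 FPKM in the control libraries (log2 fold change -1.04 ± 0.27, adjusted p = 0.0316). Drd2, a dopamine receptor of these neurons chosen after its values were seen, had 10.7, 6.65 and 4.51 FPKM in intervention and 7.07, 16.9 and 18.3 FPKM in control libraries (adjusted p = 0.142). Control library 1 lay close to the intervention libraries for Pde10a and among them for Drd2. The count of striatal genes that fell was 0 without intervention library 1, intervention library 2 or control library 2, 1 without intervention library 3 or control library 3 and 9 without control library 1. The striatal genes summed to 266, 186 and 179.9 FPKM in intervention and 178, 509 and 472 FPKM in control libraries. How far the part of the brain sampled differed between libraries was not tested. Among interneuron genes, 2 of 10 fell (median -0.38, and -0.58 under TPM), the GABA-synthesizing enzyme Gad1 with intervention values of 34.6, 31.98 and 33.02 FPKM and control values of 52.02, 51.03 and 57.4 FPKM (log2 fold change -0.67 ± 0.08, adjusted p = 9.16e-04) and the vesicular GABA transporter Slc32a1 by 0.64 on the log2 scale. Whether the interneuron count exceeds the 9.66% of all genes that fell was not tested. None of the 10 cortical excitatory genes and none of the 8 tested thalamic genes passed, with medians of -0.38 and -0.39 in limma. At an unadjusted p under 0.05 the counts were 1 and 1. The cortical median was -0.22 without control library 2 and -0.62 without control library 3, and the thalamic median was -0.10 without intervention library 1. Ttr, the transthyretin of choroid plexus, was chosen after its values were seen and had 207, 252 and 1156 FPKM in the intervention libraries, against 886, 772 and 317 FPKM in the control libraries. Intervention library 3 was the highest of all, and the groups overlapped. Of the 8 choroid plexus and ependyma genes, Foxj1, a factor of ciliated cells, rose (log2 fold change 0.54 ± 0.16, adjusted p = 0.0458) and the other 7 did not pass. With 14.6% of all genes higher, 1 of 8 does not set this list apart. The median of this list was -0.42, and it ranged from -0.07 without intervention library 1 to -0.84 without intervention library 3, where 2 genes fell. The threshold was missed by Foxj1 without intervention library 1 or 3 or control library 2 or 3 (adjusted p up to 0.146), Pde10a without intervention library 1, 2 or 3 or control library 2 or 3 (adjusted p up to 0.0892) and Slc32a1 without intervention library 1, 2 or 3 or control library 2 or 3 (adjusted p up to 0.0950).

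**Figure D4:**
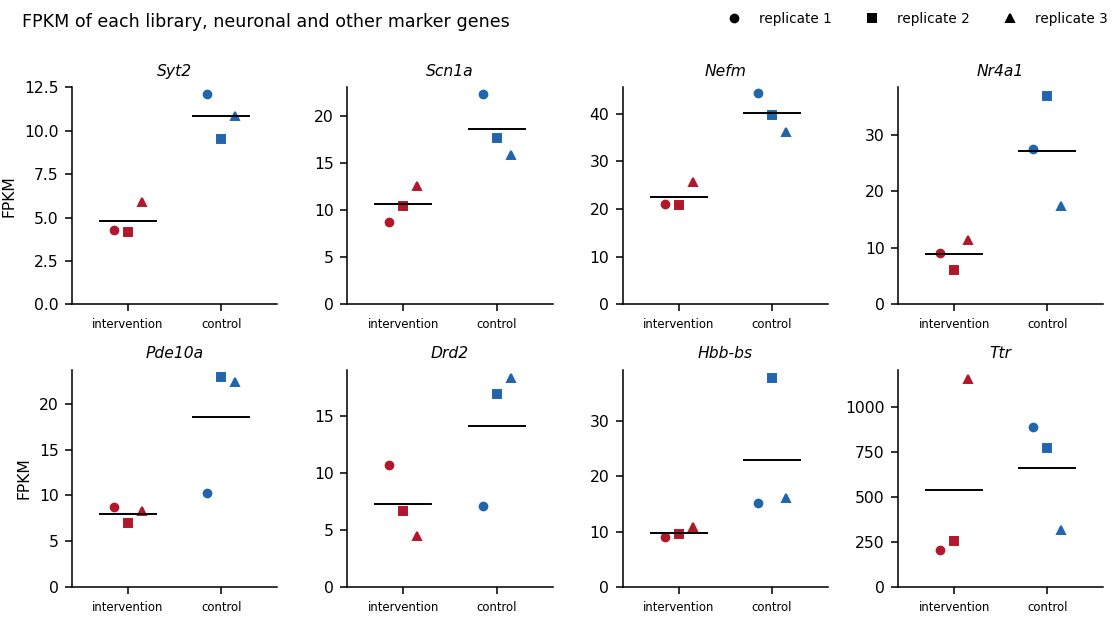
Points give FPKM of each library, intervention (red) left of control (blue), with symbols for replicates 1 to 3 and the mean as a black bar, for neuronal genes (Syt2, Scn1a, Nefm, Nr4a1), striatal genes (Pde10a, Drd2), a haemoglobin chain (Hbb-bs) and a choroid plexus gene (Ttr). The groups are apart in the upper row, while 1 control library lies away from the other control libraries for Pde10a, Drd2 and Hbb-bs, and Ttr spans 207 to 1156 FPKM within the intervention group.

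Haemoglobin transcripts were lower in the intervention libraries. Of 7 red cell genes, 4 were tested and 3 fell (median -1.16, and -0.73 without control library 2). Hbb-bs, an adult beta globin, had 9.05, 9.53 and 10.9 FPKM in intervention and 15.1, 37.8 and 16.01 FPKM in control libraries (log2 fold change -1.03 ± 0.31, adjusted p = 0.0467). Hba-a1 and Hba-a2 are near-identical alpha globin copies, so their values are uncertain where reads were split between them. Hba-a1 had intervention values of 7.24, 7.53 and 10.4 FPKM and control values of 16.4, 35.6 and 12.5 FPKM (log2 fold change -1.14 ± 0.34, adjusted p = 0.0445). Hba-a2 had 6.31, 4.62 and 7.59 FPKM in the intervention libraries, against 11.6, 29.3 and 9.98 FPKM in the control libraries (log2 fold change -1.19 ± 0.36, adjusted p = 0.04903). Control library 2 was the highest for each of these genes, and the groups stayed apart without it. Without control library 2 the adjusted p was 0.0107 for Hbb-bs, 0.0385 for Hba-a1 and 0.0396 for Hba-a2, while the count of red cell genes that fell was 0 without intervention library 1, intervention library 2 or intervention library 3 and 1 without control library 1. Under quantile normalization it was 0. The same control library had the highest value of S100a9, a granule protein of neutrophils, with 1.88, 1.48 and 1.12 FPKM in the intervention libraries, against 0.282, 4.45 and 0.162 FPKM in the control libraries. Neutrophil genes were otherwise low: of 12 listed, Csf3r rose (1.69 ± 0.11), S100a9 did not pass and 10 were under the filter. The neutrophil list summed to 7.91 to 11.97 FPKM in intervention and 2.25 to 12.7 FPKM in control libraries. Of 12 lymphocyte genes, Cd4 and Trbc2 were tested and neither passed (adjusted p = 0.0656 and 0.476). How much blood each library holds was not tested. When a library was left out, the threshold was missed by Hba-a1 without intervention library 1, 2 or 3 or control library 1 (adjusted p up to 0.141), Hba-a2 without intervention library 1, 2 or 3 or control library 1 (adjusted p up to 0.132) and Hbb-bs without intervention library 1, 2 or 3 (adjusted p up to 0.141).

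B3gnt2, which encodes an enzyme that extends lactosamine chains on glycoproteins, had the largest decrease by the rule for named genes, with 1.23, 7.17 and 1.35 FPKM in intervention and 7.74, 11.1 and 10.7 FPKM in control libraries (log2 fold change -1.62 ± 0.46, adjusted p = 0.0396). Intervention libraries 1 and 3 were low and intervention library 2 was close to control library 1, and the call was lost in 5 of the 6 fits that leave out a library (adjusted p up to 0.134). Without intervention library 2 the adjusted p was 7.37e-04. The experimental libraries had 7.13, 7.32 and 8.16 FPKM. Cort, the neuropeptide cortistatin of interneurons, had intervention values of 1.69, 0.664 and 1.78 FPKM and control values of 4.84, 4.95 and 2.78 FPKM (log2 fold change -1.13 ± 0.24, adjusted p = 0.0153). The threshold was missed by Cort without control library 1 or 2 (adjusted p up to 0.0595).

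Stress and metabolic lists had medians nearer 0. The median of 10 hypoxia and glycolysis genes was -0.02. Hk2 (a hexokinase) and Adm (adrenomedullin) were higher by 1.08 ± 0.12 and 0.72 ± 0.11, and Bnip3 was lower by 0.36. Hk2 and Adm were under 1 FPKM in every control library, and the median was -0.16 under TPM. Of 10 heat shock and ATF4 stress genes, 3 fell and none rose (median -0.16, and -0.32 under TPM): the chaperones Hsph1 and Dnajb1 and the asparagine synthetase Asns. Hsph1 had 23.1, 25.2 and 23.6 FPKM in the intervention libraries, against 36.3, 35.1 and 35.1 FPKM in the control libraries (log2 fold change -0.55 ± 0.07, adjusted p = 0.001503). Cholesterol synthesis genes fell in 7 of 12 cases (median -0.30, and -0.46 under TPM; 4 without intervention library 2, control library 1 or control library 3). Idi1, an isomerase of that pathway, had 8.601, 8.69 and 9.403 FPKM in the intervention libraries, against 13.8, 11.4 and 13.7 FPKM in the control libraries (log2 fold change -0.49 ± 0.09, adjusted p = 0.00912). The groups of Hsph1 and Idi1 did not overlap. Insig1, a regulator of sterol synthesis, fell by 0.48. Mitochondrially encoded genes were higher on the FPKM scale, 12 of 13 past the threshold with a median of 0.39, but 5 passed under TPM and 0 under quantile normalization, where the median was -0.02. The count was also 1 without control library 2, 3 without control library 1 or control library 3 and 7 without intervention library 3. They summed to between 86955 and 93439 FPKM in intervention and between 68324 and 70325 FPKM in control libraries, so that they take a large share of the sums given above. The rise of mt-Nd6 was 0.56 ± 0.11 and that of mt-Cytb 0.47 ± 0.10. Calls were lost for Bnip3 without intervention library 1 or 2 or control library 1 or 2 (adjusted p up to 0.0865), Dnajb1 without intervention library 1, 2 or 3 or control library 1 or 3 (adjusted p up to 0.128) and mt-Cytb without control library 1 or 2 (adjusted p up to 0.0579).

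Of 7 tested prostaglandin and leukotriene genes, 5 rose (median 0.91), of which Ptges and Hpgds were under 1 FPKM in every control library. Alox5ap, the protein that presents arachidonic acid to the lipoxygenase, had intervention values of 14.3, 14.8 and 10.6 FPKM and control values of 1.47, 1.12 and 1.34 FPKM (log2 fold change 2.61 ± 0.13, adjusted p = 3.24e-05). The leukotriene synthase Ltc4s, the prostaglandin D synthase of myeloid cells Hpgds and the prostaglandin E synthase Ptges rose by 1.54 ± 0.14, 1.37 ± 0.10 and 0.91 ± 0.09. Ptgs2 (cyclooxygenase-2) and Ptgds, the prostaglandin D synthase of meninges and oligodendrocytes, did not pass (adjusted p = 0.682 and 0.669). Glucocorticoid-responsive genes moved both ways, with 2 higher and 2 lower of 8 and a median of 0.01 that was -0.13 under TPM, -0.03 under quantile normalization and -0.11 without intervention library 3. These counts were not tested against the 14.6% and 9.66% of all genes that rose and fell. Pdk4 and Fkbp5 rose by 0.49 ± 0.10 and 0.31 ± 0.09, while the clock gene Per1 and the glucocorticoid receptor gene Nr3c1 fell by 0.53 and 0.40. When a library was left out, the threshold was missed by Fkbp5 without intervention library 2 or 3 or control library 1, 2 or 3 (adjusted p up to 0.131), Nr3c1 without intervention library 1 or control library 1 or 2 (adjusted p up to 0.0906) and Per1 without intervention library 1 or 2 or control library 1 (adjusted p up to 0.0778).

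Published targets of miR-124 were mostly higher in the intervention group than in control. Of 16 listed, 14 were tested, 11 rose and none fell (median 0.60). Of the 14, 1 was under 1 FPKM in every control library. The experimental group had a median of 0.68 over control for the same genes. The intervention mean was below the experimental mean for 13 of the 14, with a median difference of -0.22. This was not particular to the list. The intervention mean was also the lower for 15 of 15 reactive astrocyte genes (median -0.47), 11 of 11 complement genes (-0.29) and 13 of 14 endothelial genes (-0.32). It was the lower for 1 of 14 pan-neuronal genes. In limma on all 9 libraries, 7 of the 14 targets had an unadjusted p under 0.05 between these groups, and none passed after adjustment. Over all genes, 5.85% were below and 2.93% above the experimental group at that unadjusted level. What part miR-124 had in these differences was not tested. Ptbp1, a splicing repressor that miR-124 lowers in neurons, had 12.05, 13.3 and 10.9 FPKM in the intervention libraries, against 7.36, 6.14 and 6.996 FPKM in the control libraries (log2 fold change 0.74 ± 0.10, adjusted p = 0.00188). Ctdsp1, a phosphatase of a repressor complex of neuronal genes, had 12.3, 10.8 and 9.98 FPKM in intervention and 6.88, 6.88 and 6.78 FPKM in control libraries (log2 fold change 0.61 ± 0.09, adjusted p = 0.002598). Control values were narrow and below every intervention value for both. Cebpa, a transcription factor of myeloid cells, had intervention values of 10.7, 8.996 and 9.25 FPKM and control values of 3.81, 3.64 and 3.35 FPKM (log2 fold change 1.21 ± 0.09, adjusted p = 1.19e-04), and Slc16a1 (a lactate transporter) and Itgb1 (an integrin) rose by 0.92 ± 0.09 and 0.68 ± 0.09. Ptbp1, Cebpa and Itgb1 are also expressed by microglia, macrophages or vessel cells, whose marker genes were higher in the same libraries, and their part in this result was not tested. Against the experimental group, Ptbp1 had a log2 fold change of -0.35 ± 0.09, unadjusted p = 0.00467, adjusted p = 0.234, and Ctdsp1 one of -0.06 ± 0.08, unadjusted p = 0.487, adjusted p = 0.936.

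In the model of all 9 libraries, no gene passed between the intervention and experimental groups in limma (0.0% of the 14109 genes), while 414 genes (2.93%) were above and 825 (5.85%) below at an unadjusted p under 0.05. With quantile-normalized values 2 genes were higher and 28 lower in the intervention group after adjustment. Against control, the experimental group had 2656 genes higher (18.8%) and 2505 lower (17.8%) in this model. Both groups are set against the same control libraries, so their fold changes share that error and are given side by side. The median log2 fold changes over control of the intervention and experimental groups were 1.38 and 1.57 for homeostatic microglia, 2.31 and 2.83 for complement, 0.98 and 1.59 for antigen presentation, -0.40 and -0.55 for neurons and -0.94 and -0.77 for immediate early genes. For resting astrocyte genes they were 0.57 and 0.44, while the median over the same genes of intervention minus experimental was -0.03, with 6 of the 11 lower in the intervention mean.

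By the rule for named genes, those with the smallest p below the experimental group were H2-Ab1, Ccl2 and Adam8. H2-Ab1 had 2.45, 2.65 and 2.57 FPKM in the intervention, 4.71, 5.06 and 5.26 FPKM in the experimental and 0.725, 0.4998 and 0.645 FPKM in the control libraries (intervention minus experimental -0.76 ± 0.08, unadjusted p = 3.70e-06, adjusted p = 0.0522). Adam8, a membrane protease of leukocytes, had 3.98, 4.23 and 3.48 FPKM in the intervention, 6.84, 6.42 and 7.31 FPKM in the experimental and 0.444, 0.366 and 0.522 FPKM in the control libraries (-0.68 ± 0.09, unadjusted p = 1.60e-05, adjusted p = 0.0662). Ccl2 had 5.36, 8.07 and 8.04 FPKM in the experimental libraries, above the intervention values given earlier (-1.04 ± 0.14, unadjusted p = 2.35e-05, adjusted p = 0.0662). For these genes the intervention libraries lay between the other groups with no overlap, and none passed after adjustment. Genes of this rule, in both directions, were picked by their p against the experimental group. Their lack of overlap with that group therefore follows in part from the choice. Those with the smallest p above the experimental group were Etnppl, Plin4 and Sgk1. Etnppl, an astrocyte enzyme that degrades phosphoethanolamine, had 8.99, 9.39 and 8.297 FPKM in the intervention, 4.03, 5.601 and 4.83 FPKM in the experimental and 5.28, 4.03 and 5.52 FPKM in the control libraries (0.77 ± 0.12, unadjusted p = 1.15e-04, adjusted p = 0.07105). Plin4, a lipid droplet coat protein, had 1.42, 1.62 and 2.08 FPKM in the intervention, 0.365, 0.609 and 0.548 FPKM in the experimental and 0.719, 0.332 and 0.657 FPKM in the control libraries (0.84 ± 0.14, unadjusted p = 1.21e-04, adjusted p = 0.07105). Every intervention library was above all others for both, and the experimental and control values overlapped. Against control both genes rose (0.74 ± 0.11, adjusted p = 0.00345, and 0.79 ± 0.14, adjusted p = 0.00712). Plin4 was under 1 FPKM in every control and experimental library. It passed the filter through the intervention libraries alone, so its rise carries little weight. Sgk1, a kinase induced by glucocorticoids, had 36.1, 31.1 and 41.96 FPKM in the intervention, 21.2, 21.3 and 23.2 FPKM in the experimental and 37.6, 31.6 and 30.3 FPKM in the control libraries (0.70 ± 0.12, unadjusted p = 1.69e-04, adjusted p = 0.0768). Ptgds, chosen after its values were seen, had 301, 254 and 287 FPKM in the intervention, 109, 199 and 121 FPKM in the experimental and 309.9, 260.4 and 314 FPKM in the control libraries (1.02 ± 0.20, unadjusted p = 4.98e-04, adjusted p = 0.111). For Sgk1 and Ptgds the intervention libraries overlapped with control, and both had lower values in every experimental library.

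**Figure D5:**
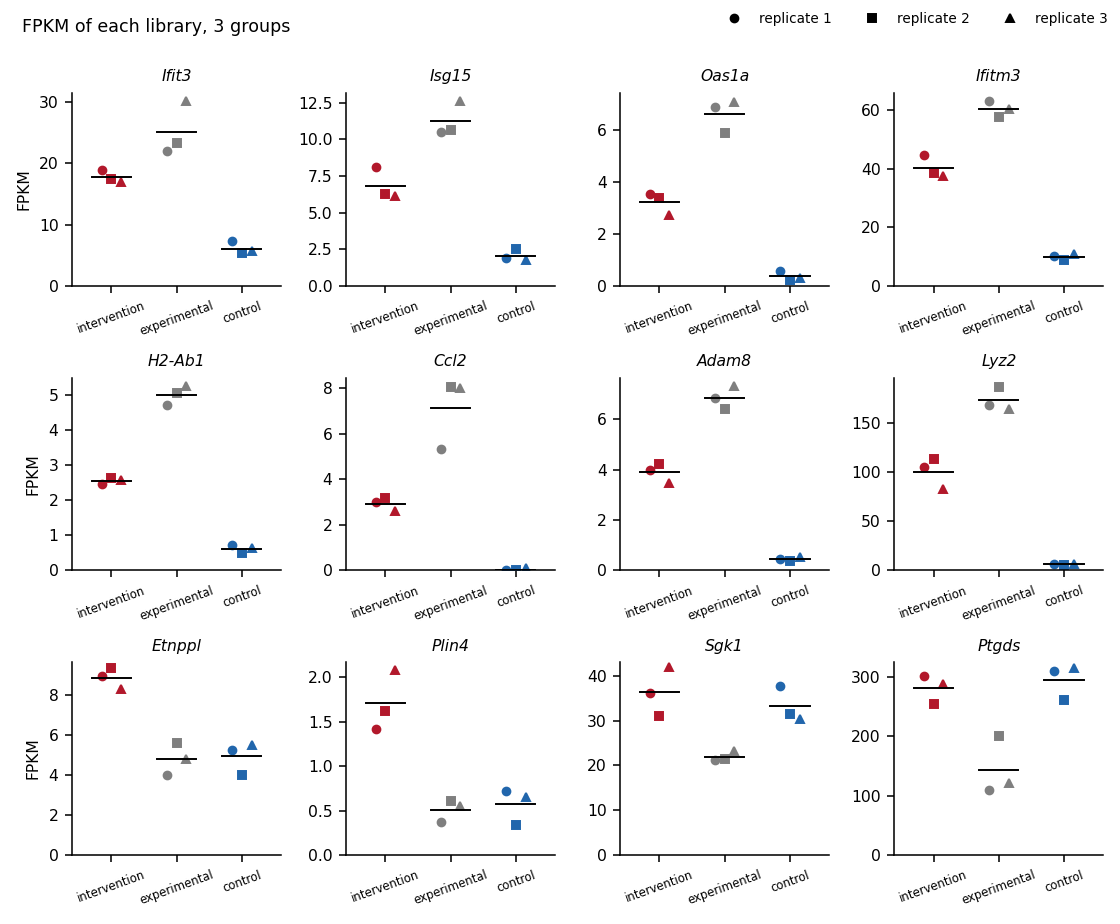
Points give FPKM of each library in the intervention (red), experimental (grey) and control (blue) groups, with symbols for replicates 1 to 3 and the mean as a black bar. From Ifit3 to Lyz2 the intervention libraries lie between the other groups without overlap, Etnppl and Plin4 are highest there, and Sgk1 and Ptgds overlap with control. Most of these genes were picked by their p against the experimental group or after their values were seen. In the main fit no gene passed between the intervention and experimental groups after adjustment.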

How the data were processed

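RNA was sequenced from mouse brain in 9 libraries, 3 for each group, and groups and replicate numbers were taken from the sample titles. The deposited table gives FPKM, computed by the authors, per the file headers, for 33586 gene entries under 33516 symbols. The build is mm10, per the submitters' processing notes, and for the aligner, counter and annotation no name is given in the sources used here. FPKM carries no counts, so depth and counting error are unknown, and a few very abundant genes can shift all other values of a library. The labels do not say whether replicates are separate animals, so p-values measure the spread between libraries, which may be technical.

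Values were tested as log2(FPKM + 1) with limma 3.58.1 (R 4.3.3), with an intensity trend in the variance, on the 6 libraries, over the 14109 genes with at least 1 FPKM in 3 or more of them, two-sided with Benjamini-Hochberg adjustment at 0.05. The fit had 4 residual degrees of freedom. Comparisons with the experimental group used all 9 libraries in 1 model. The procedure was tested on simulated data. Named genes were the 10 largest increases and 10 largest decreases without overlap and with a mean of at least 1 FPKM, up to 4 members of each list with the smallest adjusted p, 9 genes fixed by name, and the 3 genes with the smallest p in each direction against the experimental group. For the largest increases and decreases, the lack of overlap between groups was thus set by the rule. A gene outside this rule is marked in the text as chosen after its values were seen. Some genes named by the rule are not reported here. The members, lists and rule were chosen with earlier results of these data known. Positions are those of GENCODE M21, which held 96.8% of the symbols. Alternatives were another pseudocount (0.1), no filter, a filter on the mean, no variance trend, quantile normalization, all 9 libraries, a replicate block, each library left out, and, chosen after seeing the data, rescaling to TPM.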

Additional observations from a re-analysis of the deposited data

How the results depend on the processing

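In intervention against control, 1274 genes rose with the replicate number as a block, against 2056 without it, and 299 fell, against 1363. Deviations from the group means correlated at -0.06, -0.44 and -0.55 for numbers 1, 2 and 3. Between libraries of other numbers the correlations ran from -0.14 to 0.52. Deviations within a group cancel out, so these values cannot decide whether the numbers pair samples. With each library left out in turn, 1394 to 1927 genes rose and 469 to 1166 fell. With no filter on low values, 638 genes fell, and after rescaling to TPM 3314 fell, where the median of all genes was -0.15. No gene called in 1 direction in the main setting was called in the other under any alternative. The count of genes that rose was within 1.5 times 2056 in all alternatives other than the block. Between intervention and experimental libraries, quantile normalization gave 2 higher and 28 lower genes, the fit without a variance trend gave 0 higher and 1 lower, and leaving out a library gave 0 to 1 in either direction. The median of the mitochondrially encoded genes turned to -0.0203 under quantile normalization. The causes of these shifts were not tested. Of the 192 named genes, 37 lost their call against control and 14 gained one in at least 1 alternative, and none turned its direction past the threshold. Depth is unknown, so genes near 1 FPKM carry an unknown counting error.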
